A study of Mus musculus with 22 samples.

Results

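ZsGreen-tagged circulating cells of tumour-free mice (ntCZC) were compared with unsorted blood mononuclear cells (PBMC), first by the marker gates that each barcode met and then gene by gene within each gate. The comparison used 11 of the 22 libraries of the series, 10 of ntCZC and 1 of PBMC, and 2788 of the 95843 barcodes that had at least 200 detected genes and at most 25% mitochondrial UMIs. A UMI (unique molecular identifier) marks 1 captured transcript. Of these barcodes 2109 came from ntCZC libraries and 679 from the PBMC library.

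All mice carried Prom1-CreERT2, a tamoxifen-inducible recombinase expressed from the Prom1 promoter, together with Rosa26ZSG, a reporter that leaves recombined cells and their progeny green. The background was mixed, and a conditional allele of the sodium leak channel gene Nalcn was wild type (wt, 2 ntCZC libraries), heterozygous (het, 4) or null (4). The ntCZC mice were 551 to 649 days old and of both sexes, and the PBMC mouse was a wt male of 120 days. Blood was depleted of red cells by lysis, and ntCZC were then sorted for green fluorescence. The tag records a past recombination and does not by itself name a cell type. ZsGreen was not among the counted features, so the tag could not be checked in the counts. Nalcn and Prom1 had 0 UMIs in every library, wt included, so the counts check neither the deletion nor the driver gene. Sort, age and library differed together between the kinds of blood and cannot be told apart. The labels name no mouse or litter, though libraries of a genotype that differ in sex came from different mice. Het replicates 2 and 4, both male and 551 days old, cannot be told apart in this way. P-values therefore measure the spread between libraries only.

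In mouse blood, T cells carry the CD3 chains of the antigen receptor complex and B cells the CD79 chains of theirs. Monocytes depend on the receptor CSF1R and divide into classical cells, marked by Ly6C and CCR2, and patrolling non-classical cells, marked by NR4A1, TREML4 and ACE. Natural killer (NK) cells kill through granzymes and perforin and carry NCR1, and their immature and innate lymphoid relatives carry CXCR6 and CD49a (Itga1). Naive T cells recirculate through lymph nodes by means of the chemokine receptor CCR7, which effector cells lose as they acquire granzymes and chemokines. Neutrophils are filled with the calcium-binding proteins S100A8 and S100A9.

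The gates were 1 UMI or more of Cd3e or Cd3d for T, of Cd79a or Cd79b for B, of Ncr1 or Klrb1c with no Cd3e for NK, of Csf1r for monocyte, and of Retnlg or S100a8 for neutrophil. A barcode that met several gates was left out of all 5 classes, and no separate doublet caller was run. The members were thus selected on measured values, the UMI counts of these gate genes in the same libraries, so the gate genes and the gate shares are descriptions. Passing barcodes per library ranged from 11 in ntCZC wt replicate 3 to 578 in ntCZC het replicate 4. Total UMIs of passing barcodes ranged from 34737 in that library to 2433965 in the other, with 1282376 in PBMC. Median UMIs per barcode ranged from 2580 to 8600 over the ntCZC libraries against 1845 in PBMC. ntCZC wt replicate 3 stood apart, with 22.6% of its UMIs from haemoglobin genes, and the shares below are given with and without it. No barcode was shared between these libraries, and no pair of replicates agreed within sampling noise.

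The gates drew the other lineage genes of their classes. In the T gate Cd3g, a further CD3 chain, had a UMI in 117 of 118 ntCZC and 192 of 226 PBMC barcodes. In the B gate Ms4a1, which encodes CD20, was present in 230 of 274 and 165 of 236. Lyz2 (lysozyme) was present in 1130 of 1149 and 19 of 19 barcodes of the monocyte gate, and Nkg7, a granule protein of cytotoxic cells, in 24 of 24 and 42 of 43 of the NK gate. At least 2 of S100a9, Cxcr2 and Csf3r were present in 76 of 81 and 31 of 33 barcodes of the neutrophil gate. By number the overlap between gates was widest for B with monocyte, which 124 of the 405 ntCZC barcodes of the B gate met together (30.6%). Cd79a was present in 12 of those and Ms4a1 in 1. By share the widest overlap was neutrophil with monocyte, where 89 of 179 ntCZC barcodes of the neutrophil gate (49.7%) met both.

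Barcodes with Csf1r RNA, the monocyte gate, made up a larger share of the tagged cells than of the unsorted blood, in which most barcodes met the T or B gate. Macrophages carry Csf1r too, and the share of gated barcodes with RNA of the macrophage gene C1qa ran from 0.282% in het replicate 4 to 80.0% in het replicate 3, so monocyte is here the name of the gate. The monocyte gate held a median of 51.3% of ntCZC barcodes, from 0% in wt replicate 3 to 70.4% in null replicate 2, and 45.3% ± 19.2 (SD, n = 10) on average. It held 2.80% of PBMC barcodes, 19 of 679, with a 95% Clopper-Pearson interval of 1.69 to 4.34%. PBMC lay below 9 of the 10 ntCZC libraries, and without wt replicate 3 the ntCZC shares ran from 34.2 to 70.4%, with a mean of 50.3% ± 11.4 (SD, n = 9). The gate did not hold the majority everywhere, with 39.8% in het replicate 1, 38.9% in null replicate 3 and 34.2% in het replicate 3, where B cells reached 47.2%. Barcodes of at least 1000 UMIs numbered 1961 in ntCZC and 503 in PBMC, and the mean monocyte share among them was 46.6% against 3.18%. Once these were thinned to 1000 UMIs each, it was 27.7% ± 12.8 (SD, n = 10) against 1.79%, and barcodes that met no gate averaged 38.5% against 18.1%.

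T cells ran the other way. The T gate held a median of 4.92% of ntCZC barcodes, from 0% in het replicates 2 and 3 to 27.3% in wt replicate 3, against 33.3% of PBMC barcodes (226 of 679, interval 29.7 to 37.0%). PBMC lay above all 10 ntCZC libraries, and without wt replicate 3 the median was 4.35% and the highest ntCZC share 11.1%. The NK gate gave the same order, with a median of 0%, a highest ntCZC share of 3.29% in het replicate 4, and 6.33% of PBMC barcodes (43 of 679, interval 4.62 to 8.44%). Neither ntCZC value moved without wt replicate 3, which held no NK barcode. Since 6 of the 10 ntCZC libraries held no NK barcode, the NK-gate barcodes described further on came from few libraries.

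The B gate overlapped between the kinds of blood. Its ntCZC shares ran from 2.04% in wt replicate 1 to 47.2% in het replicate 3, with a median of 14.6%, and PBMC stood at 34.8% (236 of 679, interval 31.2 to 38.5%), above 8 ntCZC libraries and below 2. Without wt replicate 3 the median was 11.1% and the range was unchanged. Neutrophils reached 14.9% in wt replicate 1, where 73 of the 81 ntCZC barcodes of that gate lay, and 18.2% in wt replicate 3, where they were 2 of 11. The other 8 ntCZC libraries held 0 to 2.17% and PBMC 4.86% (interval 3.37 to 6.76%), and the ntCZC mean was 3.60%, or 1.98% without wt replicate 3. With barcodes counted in every gate they met, the ntCZC mean was 8.35% (7.26% without wt replicate 3) and PBMC stood at 9.72%. Barcodes that met several gates made up a median of 11.4% of ntCZC and 6.77% of PBMC, and those that met none 11.1% and 11.2%. Without wt replicate 3 the ntCZC medians were 11.6% and 9.16%. PBMC neutrophil barcodes were shallow, with a median of 850 UMIs, and 10 of the 33 had at least 1000. Among barcodes of that depth the mean neutrophil share was higher in ntCZC, at 3.99% against 1.99% before thinning (1.96%, below PBMC, without wt replicate 3) and at 4.81% against 1.99% after it (2.87%). With at least 500 genes per barcode it was 4.30% against 3.45%, but 2.00% without wt replicate 3.

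No test is given for these shares, since the gates selected the barcodes and PBMC is 1 library. The intervals cover counting error only, and the spread between PBMC libraries is not known from 1 library.

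**Figure D1:**
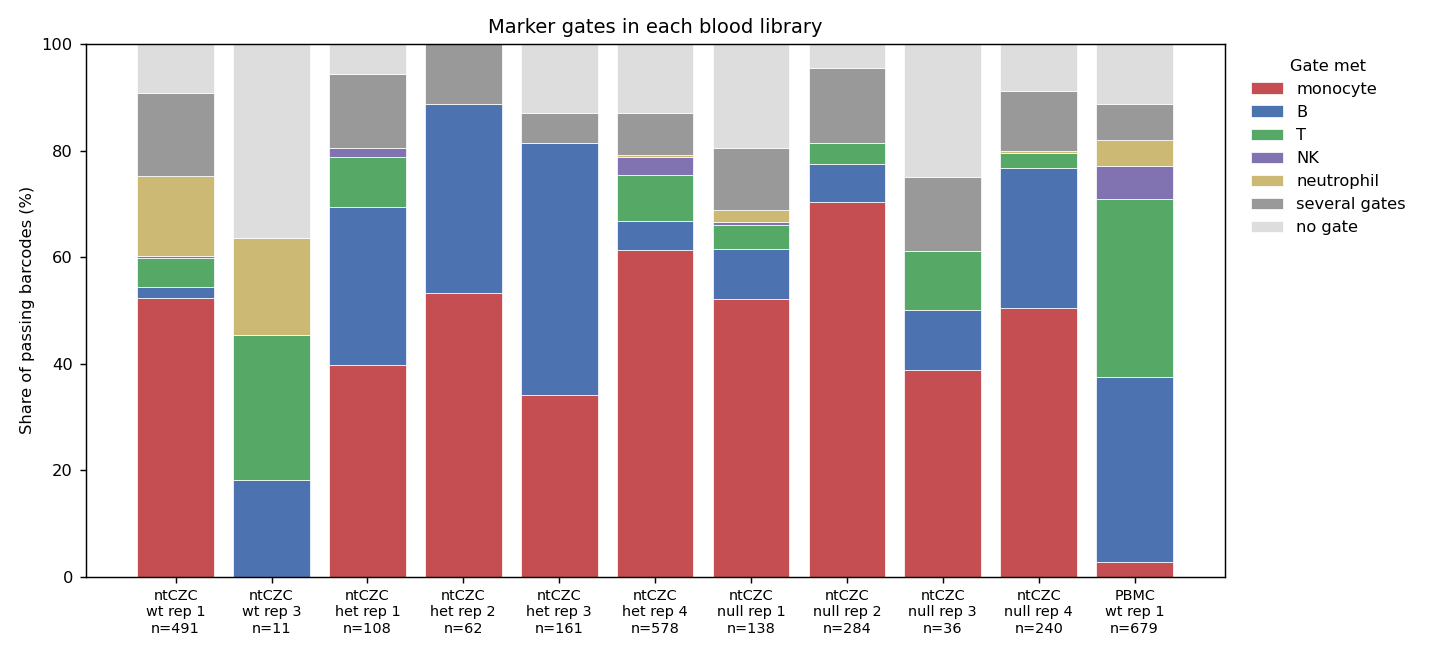
Stacked bars show the share of passing barcodes (%) that met each marker gate alone, several gates or none, for the 10 ntCZC libraries and the PBMC library, with the number of passing barcodes under each bar. The monocyte share is 34.2% or more in 9 ntCZC libraries and 2.80% in PBMC, and the T share is 33.3% in PBMC.

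The Nalcn genotype of the ntCZC mice was compared over the same gates. Null replicates 1, 3 and 4 and het replicate 3 were female, and the other ntCZC libraries, wt included, were male. Genotype and sex can thus hardly be told apart in these shares. The monocyte gate made up 53.0% ± 13.04 (SD, n = 4) of null and 47.1% ± 12.4 (n = 4) of het libraries, and B cells 13.5% ± 8.69 and 29.5% ± 17.5. The ranges of null and het overlapped for both. Neutrophils made up 0.367% ± 0.750 (SD, n = 8) of het and null together against 16.5% ± 2.34 (n = 2) of wt, and no library of one group lay within the range of the other. Of the wt libraries, replicate 3 contributed 2 neutrophil barcodes of 11 (interval 2.28 to 51.8%). These shares are given with no test. The smallest p that an exact permutation test allows, 0.0286 for null against het and 0.0222 against wt, leaves no single class under 0.05 once adjusted over 5 classes.

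ntCZC T cells had more cytotoxic and chemokine RNA and less RNA of the naive programme. The fit used the ntCZC libraries with at least 10 T barcodes, all male: wt replicate 1 (27 barcodes), het replicate 1 (10), het replicate 4 (50) and null replicate 2 (11). UMIs were summed per library and compared with PBMC (226 barcodes) by edgeR's quasi-likelihood test, adjusted by Benjamini and Hochberg's method. Of 2574 genes tested, 228 (8.86%) passed an adjusted p of 0.05, of which 64 (2.49%) were higher in ntCZC and 164 (6.37%) lower. The PBMC library is alone in its group and is assumed to vary like the ntCZC libraries. In summed counts of a gate, fewer cells of a type and less RNA per cell cannot be told apart. The number of calls was 64 by DESeq2, 95 when barcodes that met other gates too were kept, and 477 without wt replicate 1. The fits of the T, B and monocyte gates differed in libraries, UMIs and genes tested, so their numbers of calls do not rank the gates.

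Genes of naive T cells fell. Of the 10 genes of a naive list, 8 were lower in ntCZC and none higher, and the median difference over the list was −3.08 on the log2 scale, beside 0.05 over all genes tested. Ccr7 (chromosome 11, 99144196 to 99155077, minus strand, mm10) encodes the receptor that leads T cells into lymph nodes. Its levels, in CPM, the UMIs of a gene per 1000000 UMIs of the gate in that library, were 0 in wt replicate 1, 42.4 in het replicate 1, 0 in het replicate 4 and 100.2 in null replicate 2, against 316 in PBMC. All 4 ntCZC libraries lay below PBMC, as they did for 16.2% of all genes tested, and the log2 difference was −4.21 (SE 0.69, adjusted p = 0.000125, edgeR). The call was lost when barcodes that met other gates too were kept (adjusted p = 0.0935, edgeR), and DESeq2 gave Ccr7 no adjusted p.

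Lef1 and Tcf7 encode the paired transcription factors of naive and stem-like T cells. Lef1 stood at 55.6 to 169 CPM in ntCZC and 753 in PBMC (log2 difference −3.33, SE 0.40), and Tcf7 at 39.6 to 185 and 625 (−2.82, SE 0.43). S1pr1, Satb1, Dapl1 and Igfbp4 also passed, but S1pr1 not with barcodes that met other gates too (adjusted p = 0.198, edgeR) and Satb1 not with libraries of at least 20 barcodes (0.116). The 2 members that did not were Il7r, the interleukin 7 receptor, at 254 to 547 CPM against 625, and Klf2, a regulator of tissue exit, at 169 to 868 CPM against 912.

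Effector genes rose. In a memory and effector list 7 of 18 tested genes were higher in ntCZC and none lower, with a median log2 difference of 1.45. Ccl5, a chemokine of memory CD8 and NK cells (chromosome 11, 83525778 to 83530518, minus strand), stood at 11322, 11713, 7591 and 8930.4 CPM in wt replicate 1, het replicate 1, het replicate 4 and null replicate 2, and at 957 CPM in PBMC. The mean was 10.3-fold the PBMC level, with a log2 difference of 3.05 (SE 0.43, adjusted p = 1.8e-05, edgeR). Gzmb, a granzyme of killer cells (chromosome 14, 56258838 to 56262260, minus strand), reached 1733, 2161, 367 and 515 CPM against 18.1. Its levels spread widely among the ntCZC libraries, and all 4 lay above PBMC, as they did for 33.5% of all genes tested (log2 difference 5.63, SE 0.84).

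Nkg7 stood at 1348 to 2076 CPM against 426 (log2 difference 1.63, SE 0.41). Cxcr3, a chemokine receptor of type 1 effector cells, stood at 158 to 229 CPM against 25.3 (2.59, SE 0.51), and S100a4, S100a6 and Ctsw passed as well. Nkg7 and Ctsw did not pass with barcodes that met other gates too (adjusted p = 0.119 and 0.0574, edgeR) or with libraries of at least 20 barcodes (0.312 and 0.0887). Id2, at 500 to 1186 CPM against 264, did not pass (adjusted p = 0.081, edgeR), nor did the interleukin 2 receptor chain Il2rb, at 339 to 454 against 154.

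Genes shared with NK cells and innate lymphocytes were higher in the same barcodes. A barcode with Cd3e counted as T even where it had Ncr1 or Klrb1c. These 2 NK gate genes together stood at 108 CPM in pooled ntCZC T barcodes against 10.8 in PBMC. Of 8 tested NK lineage genes 6 rose (median log2 difference 2.26), and their summed level was 3484 to 5677 CPM in ntCZC against 981 in PBMC. Klrk1, which encodes the activating receptor NKG2D, stood at 380, 657, 547 and 272 CPM in the libraries in the order used above, against 45.2 in PBMC (log2 difference 3.04, SE 0.53). Klre1, Fcer1g, Tyrobp and Ctsw are further members that passed. Klre1 and Tyrobp each lost the call in 3 of 11 alternatives, by DESeq2 (adjusted p = 0.0516 and 0.0950) and with barcodes that met other gates too (0.0935 and 0.0984, edgeR) for both. The third was leaving out het replicate 4 for Klre1 (0.0881) and libraries of at least 20 barcodes for Tyrobp (0.0573). Klra1 and Klra7, receptors of the Ly49 family with near-identical paralogues among which reads may be split, stood at 53.9 to 212 and 82.7 to 329 CPM against 1.81 and 7.23.

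Of 13 genes of an immature NK and innate lymphoid list, 6 rose and Emb fell. The receptor Cxcr6 (chromosome 9, 123806475 to 123811760, plus strand) stood at 686, 572, 514 and 530 CPM against 86.7, the narrowest relative spread of the 6, and its log2 difference was 2.41 (SE 0.45). Xcl1, a chemokine that attracts cross-presenting dendritic cells, stood at 286 to 572 CPM against 19.9 (3.88, SE 0.56). Cd7, Itga1, Tmem176a and Tmem176b were the others, of which Itga1 did not pass with barcodes that met other gates too (adjusted p = 0.0540, edgeR). Among genes outside the lists with the largest differences, Rgs1, a brake on chemokine receptor signalling, stood at 519 to 1525 CPM against 59.6, and Fasl, a death ligand, at 120 to 191 against 10.8.

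Antigen receptor genes passed in neither direction. Cd3g stood at 1553 to 2330 CPM against 995 (log2 difference 0.56, SE 0.37, adjusted p = 0.424, edgeR) and Trbc2 at 1611 to 2159 against 1530. In the T lineage list 3 of 14 genes fell and none rose, namely Cd5, Bcl11b and Cd4. Cd4 stood at 0 to 42.4 CPM against 132 (log2 difference −3.01, SE 0.69). Of the ntCZC T barcodes 87 of 118 (73.7%) had neither Cd4 nor Cd8 RNA, against 103 of 226 (45.6%) in PBMC, although their median depth was higher, 4648 against 2482 UMIs. The libraries were unlike in this. In het replicate 4, 43 of 50 barcodes had neither, whereas in het replicate 1 they were 3 of 10 and 5 had Cd8 RNA alone. Trdc, the constant region of the delta chain, was present in 10 of 118 and 9 of 226.

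The contrast held at equal depth. With each barcode thinned to 1000 UMIs (116 ntCZC and 199 PBMC barcodes left), Ccl5 was present in 81.0% and 13.6%, Cxcr6 in 42.2% and 5.03%, Klrk1 in 37.9% and 3.52%, Ccr7 in 1.72% and 27.1%, and Lef1 in 7.76% and 49.2%. Unthinned, Ccl5 was present in 83.9% and 15.9% and Ccr7 in 4.24% and 44.7%. In the B gate, whose cells should lack these genes, Ccl5 was present in 0% and 3.28% of thinned barcodes, and Cxcr6 and Klrk1 in 0% of both, with median depths of 3093 and 1640 UMIs before thinning. In the monocyte gate Ccr7 and Lef1 were present in 0% of 1098 ntCZC and 16 PBMC thinned barcodes. What gave the Ccl5 UMIs of B-gate barcodes was not tested. Cd3g was present in 77.6% and 65.3% of thinned T barcodes.

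Some called T-gate genes rested on few barcodes. The histone gene Hist1h2ap, with the largest fitted rise (adjusted p = 0.0688 by DESeq2), came from 16 of 118 ntCZC barcodes, and 121 of its 362 UMIs came from 1. Gzmb, by contrast, was present in 55 and Rgs1 in 95. The 4 haemoglobin genes were the furthest lower genes, and for each of them over 95% of PBMC UMIs came from 1 barcode, in which haemoglobin made up 52.2% of UMIs. Without that barcode haemoglobin stood at 184 CPM in place of 5414, and 218 genes were called.

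**Figure D2:**
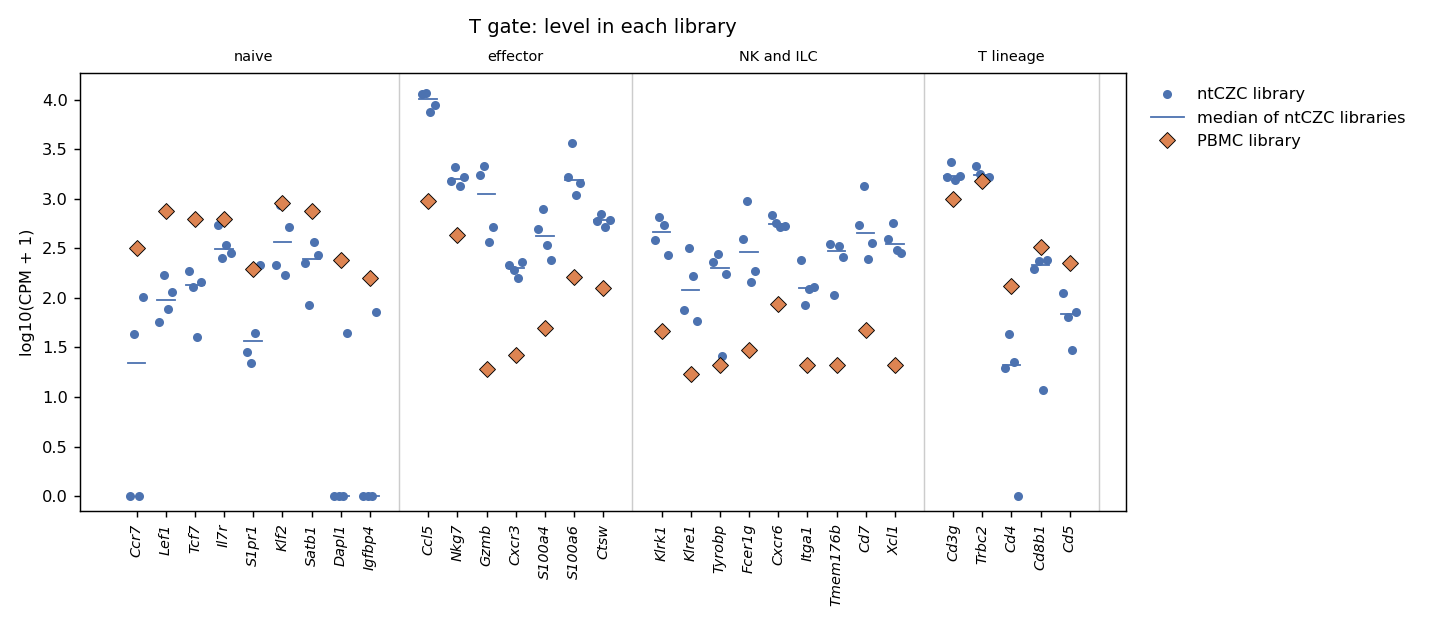
Each dot is the T-gate level of a gene, as log10(CPM + 1), in 1 of 4 ntCZC libraries, the line is their median and the diamond is the PBMC library. Naive genes such as Lef1 (55.6 to 169 CPM against 753) lie below the diamond, effector and NK-shared genes such as Ccl5 and Cxcr6 lie above it, and the T lineage gene Cd3g (1553 to 2330 CPM against 995) did not pass the test.

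Ribosomal protein genes were lower in part in the T gate. There 16 of 78 passed and all 16 were lower in ntCZC, beside 6.37% of all genes tested, with a median log2 difference of −0.51 over the 78 and 0.05 over all genes. In the B gate 2 of 80 passed, Rps15 and Rpl23a, beside 0.195% of all genes, and the median was 0.025 against 0.062. In the monocyte gate none of 87 passed, beside 0.0524% of all genes, and the median was 0.25 against 0.39. Rps15, of the small subunit, and Rpl23a, of the large subunit, were chosen after their values were seen. In the T gate Rps15 stood at 466 to 602 CPM in ntCZC and 4274 in PBMC (log2 difference −3.28, SE 0.31), and Rpl23a at 329 to 463 and 3116. Rps15 had the same order in the B gate, at 384 to 707 against 3243 CPM, and in the monocyte gate, at 352 to 708 against 1949, where it did not pass. In the NK and neutrophil gates pooled Rps15 stood at 310 and 225 CPM in ntCZC against 2015 and 546. All 5 sets of values use the same PBMC library, so they are not independent of each other, and a cause was not tested. Rpl5 was also higher in PBMC, at 5011 CPM against 657 to 887 in the T gate, 2608 against 503 to 985 in the B gate and 1741 against 410 to 751 in the monocyte gate. The feature list and the software version in the file headers were the same in all 11 libraries. Whether other steps differed for the PBMC library was not tested.

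The NK gate held 24 ntCZC barcodes, 19 of them from het replicate 4, and 43 PBMC barcodes. Only 1 ntCZC library reached 10 barcodes, so no fit was made and no p-value is given. Values are pooled CPM with 95% Poisson intervals, which cover counting error only. Genes of an immature NK and innate lymphoid list were mostly higher in ntCZC, and genes of a mature NK list mostly higher in PBMC. Of 13 immature and innate lymphoid genes 12 were higher in ntCZC, as were 47.4% of the 9254 genes with a UMI in this gate, with 678 UMIs in sum (6772 CPM, interval 6272 to 7301) against 36 (429 CPM, 301 to 594). Of 14 mature NK genes 12 were higher in PBMC, as were 52.6% of all, and 2, Gzmb and Ccl5, in ntCZC. T-cell receptor RNA was higher in the tagged barcodes as well, with Trbc2 at 929 CPM (750 to 1138) against 107 (49.1 to 204), Trbc1 at 1159 (957 to 1390) against 191 and 21 UMIs of Cd3g against 1. The T lineage list summed to 2727 CPM (2413 to 3070) against 835 (651 to 1055), and its part in the differences was not tested. NK is here the name of the gate.

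Cxcr6 stood at 409 CPM (interval 294 to 556) with a UMI in 14 of 24 ntCZC barcodes and in 0 of 43 PBMC barcodes, at least 11.4-fold higher against the floor of 3 UMIs in the PBMC gate. In het replicate 4 alone it stood at 454 CPM. Cd7, a surface glycoprotein of T and NK precursors, stood at 2547 CPM (2244 to 2879) against 119 (57.2 to 219), and was present in 23 of 24 and 8 of 43 barcodes. Xcl1 stood at 1608 CPM (1369 to 1877) against 155 (82.5 to 265). Il7r and Tmem176b were both at 310 CPM (210 to 439) and had no PBMC UMI, which puts each at least 8.65-fold higher. Itga1 was present in 13 of 24 and 2 of 43 barcodes.

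Most mature genes ran the other way. Prf1, which encodes perforin, stood at 320 CPM (219 to 451) in ntCZC against 2063 (1767 to 2394). Gzma stood at 6872 (6368 to 7405) against 18579 (17668 to 19525). Zeb2, a transcription factor of terminal NK maturation, had 2 UMIs in ntCZC and 82 in PBMC (978 CPM, 778 to 1214). S1pr5, the receptor by which mature NK cells leave tissues, had 1 UMI against 30, and the integrin Itga4 had 2 against 113. Eomes, a transcription factor of conventional NK cells, was present in 1 of 24 and 15 of 43 barcodes. Of the genes with the largest ratios, Gzmc had 30 of its 36 UMIs in 1 barcode.

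The mature-list exceptions differed in size. Ccl5 stood at 19267 CPM (18416 to 20146) against 17911 (17017 to 18840), and Gzmb at 2717 (2403 to 3060) against 1026 (820 to 1267), 2.65-fold higher in ntCZC. Ncr1, a gate gene, stood at 1069 (876 to 1291) against 906 (714 to 1134). After thinning to 1000 UMIs, Cxcr6 was present in 29.2% of 24 ntCZC and 0% of 35 PBMC barcodes, and Prf1 in 12.5% and 82.9%, beside unthinned shares of 58.3% and 0%, and of 66.7% and 93.0%.

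**Figure D3:**
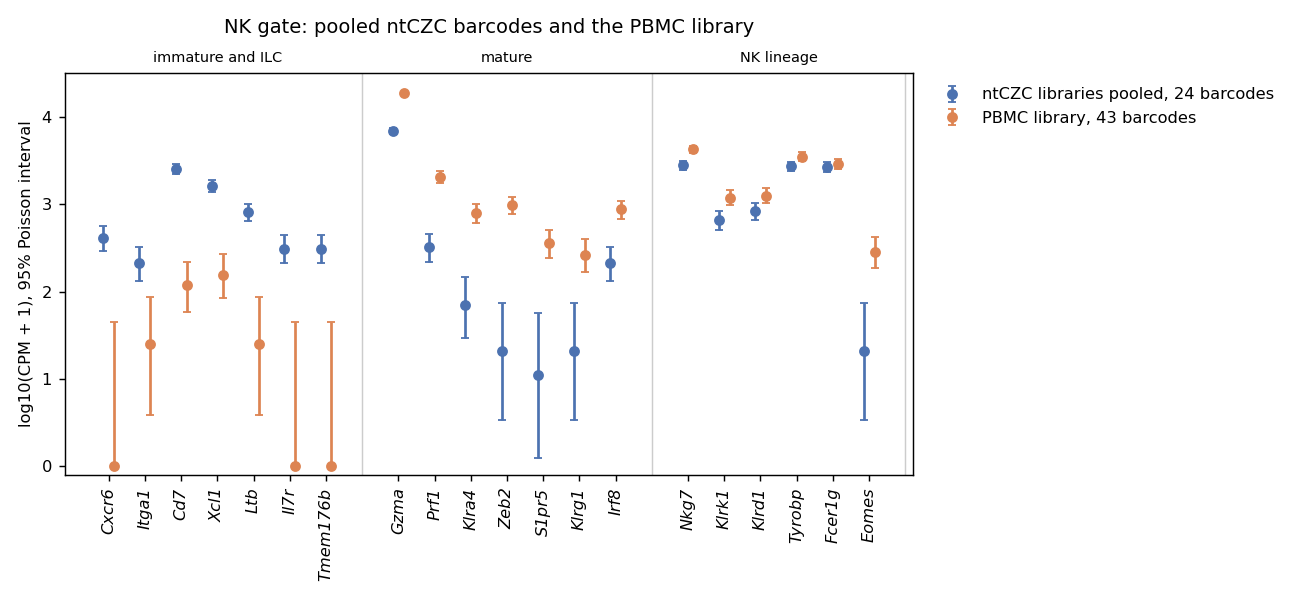
Points give the pooled level of NK-gate genes, as log10(CPM + 1), with 95% Poisson intervals, for 24 ntCZC barcodes and 43 PBMC barcodes. Cxcr6, Cd7 and Xcl1 are higher in ntCZC, and Prf1, Zeb2 and S1pr5 are higher in PBMC.

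In the monocyte gate 9 ntCZC libraries with 14 to 354 barcodes were compared with 19 PBMC barcodes, which held 52835 UMIs in all. Of 7630 genes tested with sex as a covariate, 4 (0.0524%) passed edgeR's quasi-likelihood test, none of them higher in ntCZC, and 532 had an unadjusted p under 0.05. DESeq2 called 10, in both directions, and edgeR without wt replicate 1 also called a gene higher in ntCZC. The 4 genes of the main fit were the alpha-globin and beta-globin genes (Hbb-bs, Hbb-bt, Hba-a1, Hba-a2), and over 99% of their PBMC UMIs came from 1 barcode. Without haemoglobin-rich barcodes edgeR called 0 genes, with 607 at an unadjusted p under 0.05. The median log2 difference over all genes tested was 0.39, so single values are read against that shift.

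Non-classical genes were present in this gate in both kinds of blood. Ace, an angiotensin-converting enzyme of patrolling monocytes, was present in 777 of 1149 ntCZC and 12 of 19 PBMC barcodes, and stood at 14.5 to 626 CPM against 360 (interval 217 to 562). Nr4a1, the factor on which non-classical monocytes depend, stood at 171 to 741 CPM against 644. Ly6c2 was lower in the tagged cells. It ranged from 0 in het replicate 3 to 244 CPM in wt replicate 1, with a median of 42.9, against 530 CPM in PBMC (352 to 766), where 4 of 19 barcodes had a UMI, and PBMC lay above all 9 libraries (23.1% of all genes tested do). It did not pass the test (adjusted p = 0.712, edgeR). Ccr2, the receptor by which classical monocytes leave marrow, overlapped, at 74.5 to 632 CPM against 473.

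Antigen presentation genes were higher in ntCZC without passing the test. All 9 tested genes of the MHC class II list had positive log2 differences, with a median of 1.93 beside 0.39 over all genes tested. The summed level of the list was 8242 to 21737 CPM against 3937. Other lists leaned the same way in this gate, with 13 of 14 MHC class I and 14 of 15 inflammatory cytokine genes positive. Of the classical monocyte list 7 of 13 were positive. H2-Aa stood at 1062 to 3382 CPM (median 1439) against 435 (276 to 653), below all 9 ntCZC libraries, as did 27.0% of all genes tested. Cd74, the invariant chain, stood at 4084 to 10667 CPM (median 5537) against 2347 (1952 to 2798), with an adjusted p of 0.578 (edgeR). The B lineage list summed to 4369 to 10826 CPM against 2593, nearly all of it Cd74. Its other 11 genes summed to 159 to 286 CPM against 246, with 1 UMI of Ms4a1 and 1 of Pax5 in ntCZC and none in PBMC. Macrophage genes were higher in ntCZC too, at a summed 174 to 12940 CPM against 151. Macrophage and class II sums, in that order, were 174 and 8411 CPM in het replicate 4 and 319 and 10627 in wt replicate 1. They were 1109 and 10060 in null replicate 2, 2558 and 8895 in null replicate 4 and 3988 and 11826 in het replicate 2. Het replicate 1 had 4533 and 15222, and null replicate 3 had 6949 and 21737. Null replicate 1 had 11136.5 and 10139, and het replicate 3 had 12940 and 8242. The part of macrophage RNA in the difference was not tested. Klf4, which promotes monocyte differentiation, stood at 217 to 613 CPM against 132 (53.3 to 273), and Apoe, a lipid carrier, at 3501 to 20335 against 2972.

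The tagged monocyte gate was not uniform. Complement C1q genes of tissue macrophages, such as C1qa, stood at 5268 CPM in het replicate 3, 3609 in null replicate 1, 2333 in null replicate 3, 1375 in het replicate 1 and 1253 in het replicate 2. They stood at 731 CPM in null replicate 4 and 271 in null replicate 2, but at 16.5 in wt replicate 1 and 0.637 in het replicate 4, the libraries with the most monocyte barcodes. No C1qa UMI was found in the 19 PBMC barcodes, whose floor of 3 UMIs was 56.8 CPM. C1qa levels in wt replicate 1 and het replicate 4 lay below that floor. Timd4, a receptor of resident macrophages, was highest in het replicate 3, at 344 CPM, and absent from wt replicate 1 and het replicate 4. The chemokine Cxcl2 stood at 2.75 to 8846 CPM, with the highest levels in null replicate 1 and het replicate 3. None of the 8 tested genes of the macrophage list passed.

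Het replicate 3 was also lowest in the non-classical genes Ace and Treml4, at 14.5 and 31.0 CPM. The other 8 ntCZC libraries ranged from 198 to 626 and from 124 to 424 CPM. Of the genes that the study named for circulating tumour cells, Krt80, a keratin, stood at 84.9 to 185 CPM against 360 (217 to 562), and was present in 577 of 1149 and 10 of 19 barcodes, whose median depths were 4813 and 2350 UMIs. After thinning to 1000 UMIs its shares were 16.4% of 1098 and 37.5% of 16 barcodes. The study reported KRT80 protein by immunofluorescence of blood smears from tumour-bearing mice, and not in PBMC, whereas these values are RNA. Of the 9 genes that the study named, 7 were tested in this gate, the 4 haemoglobin genes among them, and 0 had a positive log2 difference. Cdh1 or Epcam, both adhesion genes of epithelium, was present in 57 of 2109 (2.70%) ntCZC and 11 of 679 (1.62%) PBMC barcodes over all gates. These shares were not thinned, and ntCZC barcodes were deeper, with library medians of 2580 to 8600 UMIs against 1845. An epithelial list, pooled, stood at 161 CPM against 360 in the monocyte gate and 134 against 26.6 in the B gate. It stood at 18.3 against 1.81 in T, 59.9 against 0 in NK and 106 against 102 in neutrophil.

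**Figure D4:**
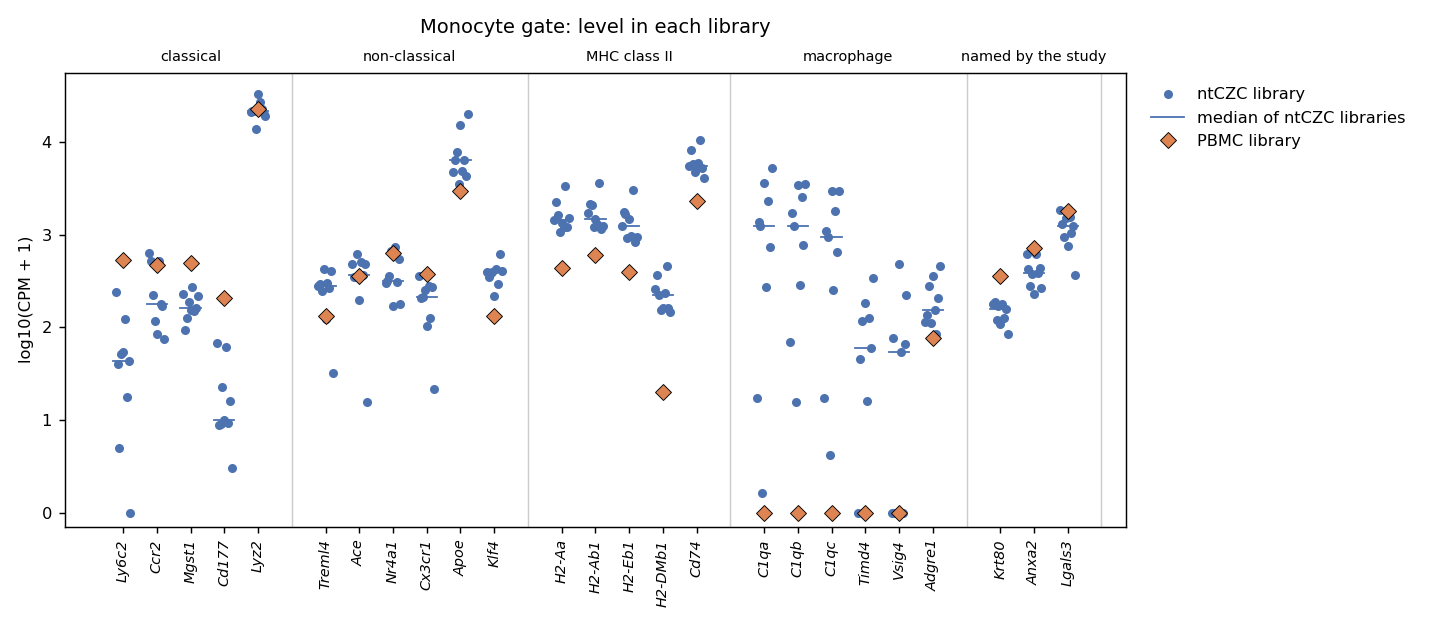
Each dot is the monocyte-gate level of a gene, as log10(CPM + 1), in 1 of 9 ntCZC libraries, the line is their median and the diamond is the PBMC library (19 barcodes). MHC class II genes such as H2-Aa lie above the diamond in all 9 libraries, Ly6c2 lies below it, and C1qa spans 0.637 to 5268 CPM.

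In the B gate 8 ntCZC libraries with 10 to 76 barcodes were compared with 236 PBMC barcodes, with sex as a covariate. Of 4102 genes 8 (0.195%) passed edgeR's quasi-likelihood test, all lower in ntCZC, and 360 had an unadjusted p under 0.05. No low-count filter gave 51 calls, and keeping barcodes that met other gates gave 22. For 5 of the 8, single PBMC barcodes held most of the UMIs. All 440 PBMC UMIs of Ighg2c, an immunoglobulin heavy-chain constant gene, came from 1 barcode, and so did the 225 of Jchain, the joining chain of secreted antibody, which did not pass. The 4 haemoglobin genes had 73.4% or more of their PBMC UMIs in 1 barcode. Rps15 and Rpl23a have been described. DESeq2 and the fit without a low-count filter also called genes higher in ntCZC. Rpl23a lost its call in 4 of 18 alternatives, without the sex covariate (adjusted p = 0.161, edgeR) and without het replicate 2 (0.0706), het replicate 4 (0.0515) or null replicate 2 (0.0681).

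Zfp36l2, an RNA-binding protein that restrains lymphocyte proliferation (chromosome 17, 84183931 to 84187947, minus strand), was spread over cells. It ran from 69.3 CPM in null replicate 1 to 298 in het replicate 4, with a median of 251, against 1456 (interval 1336 to 1583) in PBMC, with UMIs in 164 of 274 and 187 of 236 barcodes. All 8 ntCZC libraries lay below PBMC, as they did for 11.4% of all genes tested (log2 difference −2.86, SE 0.56, adjusted p = 0.041, edgeR). That call was lost in 7 of 18 alternatives, among them leaving out het replicate 2, het replicate 4, null replicate 2 or wt replicate 1.

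PBMC lay inside the ntCZC range for the B lineage genes other than Ighm, which was higher in PBMC, at 4662 CPM, than in all 8 ntCZC libraries (2131 to 4617). Ms4a1 ranged from 597 to 1737 CPM with PBMC at 1086, and the 12 members together from 31984 to 42392 CPM with PBMC at 38668. None of the 12 passed. Follicular genes varied widely instead. Fcer2a, which encodes CD23, ran from 5.84 CPM in het replicate 3 to 510 in null replicate 2, and stood at 438 in PBMC. Ighd ran from 40.9 CPM in het replicate 3 to 1555 in wt replicate 1, and stood at 1193 in PBMC.

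Genes of a joint list for B1 cells and for age-associated B cells were high in some ntCZC libraries only. S100a6, a calcium-binding protein, was present in 36.1% of 274 ntCZC and 3.81% of 236 PBMC barcodes. Het replicate 1 held 235541 B-gate UMIs in 32 barcodes with a median of 2823.5, so deep barcodes weigh most in its sums. S100a6 stood at 7744 CPM in het replicate 1, 3918 in het replicate 3, 2182 in null replicate 1 and 362 in null replicate 4. It stood at 28.4 CPM in het replicate 4, 17.3 in het replicate 2 and 0 in wt replicate 1 and null replicate 2, and at 42.5 in PBMC (24.3 to 69.0), so PBMC lay inside the range (adjusted p = 0.613, edgeR). Zbtb32, a transcriptional repressor of B-cell responses, was found in the same libraries. It stood at 208 CPM in het replicate 1, 152 in het replicate 3 and 69.3 in null replicate 1, and at 2.66 CPM in PBMC, where it had 1 UMI. Of 9 tested members of that list 7 had positive log2 differences (median 1.66) and none passed. Over all genes tested in this gate the median was 0.062.

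In het replicate 3 many B cells had the same light-chain segment. Igkv1-117, a kappa variable gene segment (chromosome 6, 68121046 to 68121827, plus strand), supplied 70.8% of the 130 light-chain variable UMIs of its B gate and was present in 43 of 76 barcodes, against 2 of 63 in null replicate 4, 3 of 236 in PBMC and none in the other ntCZC libraries. In that library S100a6 was present in 72 of 76, Zbtb32 in 50 of 76 and Jchain in 43 of 76 barcodes. Light-chain segments are short and close in sequence to each other, so reads may be split among them. The B barcodes of het replicate 3 were also the deepest, with a median of 10334 UMIs against 2124 to 4240 in the other ntCZC libraries and 1640 in PBMC. Those other ntCZC libraries held 0 to 60 light-chain variable UMIs each. PBMC held 72, of which its own leading segment supplied 34.7%.

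**Figure D5:**
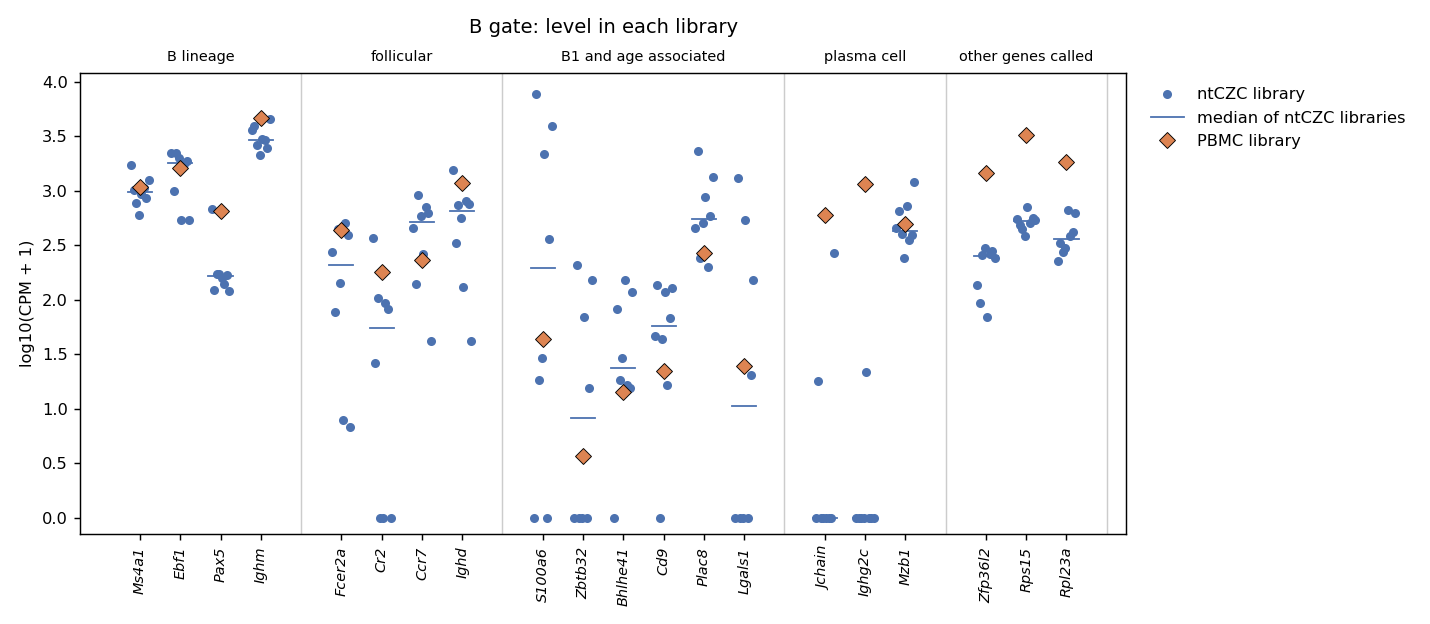
Each dot is the B-gate level of a gene, as log10(CPM + 1), in 1 of 8 ntCZC libraries, the line is their median and the diamond is the PBMC library (236 barcodes). For Ms4a1 the diamond lies inside the range of the dots, S100a6 spans 0 to 7744 CPM, and Zfp36l2, Rps15 and Rpl23a lie below the diamond in all 8 libraries.

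The neutrophil gate held 81 ntCZC barcodes, 73 of them from wt replicate 1, and 33 PBMC barcodes, and no fit was made. Genes of mature neutrophils were high in both. S100a9 stood at 53628 CPM (interval 52468 to 54808) against 44817 (42427 to 47308), and Cxcr2, the receptor that draws neutrophils from marrow, at 1737 (1534 to 1960) against 1705 (1266 to 2248). Il1b, an inflammatory cytokine, stood at 7477 (7048 to 7926) against 5560 (4739 to 6482), and Lcn2, an iron-sequestering granule protein, at 1096 (936 to 1277) against 512 (286 to 844). Of the 15 genes of the mature list 7 were higher in ntCZC and 8 in PBMC. Hdc, which makes histamine, was among those higher in PBMC, at 984 (833 to 1156) against 1671 (1236 to 2210). The granule genes Ngp and Camp of immature cells had no UMI in either. The largest ratios, in H2-Ab1, H2-Aa and Cd74, rested on single barcodes, with 117 of 120 H2-Ab1 UMIs in 1.

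Barcodes that met no gate were 221 in ntCZC and 76 in PBMC. Lyz2 was present in 170 and 17 of them, and platelet genes (Pf4, Ppbp or Itga2b) in 34 (15.4%) and 15 (19.7%). Haemoglobin made up over 50% of UMIs in 6 of the 221 and in 0 of the 76, which allows a share of up to 3.95% (3 of 76). Cd3g, which was not used for the gates, was present in 1 and 11, so the gates passed over some barcodes with T-cell RNA. The median depth of ungated barcodes was 1631 UMIs in ntCZC and 613 in PBMC.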

How the data were processed

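Droplet libraries (10x 3′ chemistry, version 3) of 10 ntCZC samples and 1 PBMC sample were used. Per the submitters' processing notes, reads were aligned to mm10 with Cell Ranger (2.1.1 in the notes, 3.0.2 in the matrix headers). The authors deposited filtered matrices of raw UMI counts, whole numbers for each gene in each barcode, without normalization, and their later filter and Seurat steps are not in these counts. cDNA was amplified for 12 or 16 cycles, and which library had which is not given in the sources used here. Tissue libraries were not used here beyond counting barcodes.

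Barcodes under 200 genes or over 25% mitochondrial UMIs were dropped, and the rest were sorted by 5 gates. Counts were summed per library over barcodes meeting 1 gate alone, for libraries with at least 10. They were tested with edgeR 4.0.16 (R 4.3.3; TMM, filterByExpr, quasi-likelihood, Benjamini-Hochberg at 0.05), with sex as a covariate for B and monocyte. For NK and neutrophil 1 ntCZC library reached 10 barcodes, so only pooled values are given. Shares carry exact Clopper-Pearson intervals, and sums exact Poisson intervals, at 95%. PCR duplicates were collapsed by UMI, and intervals cover counting error only. The fits were tested on simulated counts, where those of the B and monocyte gates recovered a smaller share of the changed genes than that of the T gate.

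The text names members of the gene lists, the 10 called genes per direction with the largest fitted difference for each fit, and the 5 genes per direction with the largest ratio where there was no fit (at least 20 UMIs in sum). Igkv1-117, Rps15, Rpl23a, barcodes without Cd4 or Cd8, and the contents of ungated barcodes were chosen after their values were seen. The members, gates and lists were all chosen with earlier results of these data known. Alternatives were DESeq2 1.42.0, RLE scaling, other filters and gates, thinning to 1000 UMIs, the study's barcode filter, and leaving out each library. Limits to barcodes of at least 1000 UMIs, to a Cd79a B gate, to monocytes without Ly6c2 and to barcodes with at most 10% haemoglobin were added after the data were seen. Values of some genes of the lists are not reported here. Gene positions are from GENCODE vM21 (mm10).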

Additional observations from a re-analysis of the deposited data

Results flagged for a closer look

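A library stood farther from the others of its group than Dixon's 95% critical value allows in 8 of 47 groups looked at (17.0%). Chance gives about 1 in 20 only for independent groups of values that vary smoothly. In 5 of the 8 groups every other library was at 0, where any value above 0 passes. Groups of gate shares rest on the genes that selected the barcodes, and those of all ntCZC, het and null libraries overlap. That rate therefore does not apply to the count, and the flags are descriptions. In ntCZC wt replicate 3, with 11 passing barcodes, the T share of 27.3% was the highest of 10 (median of the others 4.35%) and the monocyte share of 0% the lowest (median of the others 52.2%). The NK share of null replicate 1, 0.725% or 1 barcode, and the neutrophil share of het replicate 4, 0.346% or 2 barcodes, were the only values above 0 and above the others of 4 null and 4 het libraries, whose medians were 0%.

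In the T gate null replicate 2 (11 barcodes) was the only one of 4 ntCZC libraries with Dapl1 (42.9 CPM), and het replicate 4 the only one with Hba-a1 (3.60 CPM). In the B gate null replicate 1 alone had Ighg2c (20.8 CPM) among 8 libraries. Igkv1-117 stood at 89.6 CPM in het replicate 3, against 19.3 CPM in null replicate 4 and 0 in the other 6. It was picked as the light-chain variable segment with the most UMIs over the ntCZC B gate. Het replicate 3 held 130 light-chain variable UMIs, the most of these libraries, so the pick leaned towards that library.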

How the results depend on the processing

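Of 18 summary results, the 5 share differences between ntCZC and PBMC kept their direction under all alternatives apart from neutrophil. That difference was −1.26 percentage points, 2.82 after thinning to 1000 UMIs, 2.00 with barcodes of at least 1000 UMIs left unthinned and 0.854 at 500 genes or more per barcode. The NK difference of −5.71 points became −3.59 with 2 UMIs or more per gate. The study's barcode filter left wt replicate 3 with no barcode. Leaving out 1 ntCZC library at a time gave −28.2 to −25.2 points for T, −18.7 to −13.7 for B and 39.7 to 47.5 for monocyte. The null minus het difference in T share, 1.08 points, ran from −0.765 to 2.68, and was −0.765 without null replicate 3 and −0.408 without het replicate 2 or 3. The het and null minus wt difference in monocyte share, 23.9 points, ran from −2.30 (without wt replicate 3) to 50.04. The causes of these changes were not tested.

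T-gate calls numbered 228, and 64 by DESeq2, 95 with barcodes that met other gates and 190 to 477 with 1 library left out (477 without wt replicate 1). By DESeq2 3 of 29 named T genes lost their call and 11 others had no adjusted p. With barcodes that met other gates 8 of 40 lost it. B-gate calls numbered 8, and 51 without a low-count filter, 22 with barcodes that met other gates, 3 with at most 10% haemoglobin per barcode and 6 to 11 with 1 library left out. Monocyte calls numbered 4, and 10 by DESeq2, 0 with at most 10% haemoglobin, 0 without Ly6c2 barcodes and 4 to 6 with 1 library left out. No named gene reversed. Calls higher in ntCZC, absent from the main B and monocyte fits, arose in some alternatives, DESeq2 among them. The median of all monocyte genes was 0.39, 0.29 with RLE scaling and 0.25 by DESeq2.

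Het and null libraries of the same replicate number gave correlations of −0.0367 to 0.0746 over 7546 genes. Pairs with different numbers gave −0.465 to 0.463. The libraries also differed in cell composition, so these values cannot decide whether libraries of the same number shared a litter or batch. With the replicate block the smallest p an exact permutation test allows is 0.125, so no class could pass, and the mean differences, which the block leaves as they are, were 1.08 points for T, −16.0 for B, −1.10 for NK, 5.86 for monocyte and 0.561 for neutrophil. No paired analysis was possible for ntCZC against PBMC because PBMC has 1 replicate. Alternatives for genes of the NK and neutrophil gates were not run, since no fit was made. Among the PBMC gates depth limits neutrophil most, where 3 UMIs are 102.3 CPM, and then monocyte, at 56.8 CPM.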
